A study of Mus musculus with 20 samples.

Results

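Dlx1, Lhx6 and Vip are 3 genes that mark GABAergic interneurons of the mature cortex, and they were followed here over 20 microarrays of adult mouse retina and newborn mouse cortex. They were found by the gene symbol of the platform annotation. Each had 1 probe, so the set held 3 of the 10500 probes of the array and 3 of its 9230 named genes. Total RNA came from 2 pools. The retina pool was from adult C57/B6 mice and the cortex pool from Swiss-Webster animals taken on postnatal day 1. Either pool was hybridised to 5 arrays at each of 2 sites, called the first site and site 2, which gives 4 groups of 5. The arrays were of the GE Healthcare (Amersham) CodeLink type, on which biotin-labelled RNA gives 1 intensity per probe. No allele, agent or treatment is named in the labels for either pool. With 1 pool per tissue, arrays within a group repeat the measurement and not the animals, so every p-value below reflects array-to-array variation alone. Tissue, strain and age differ together between the pools and cannot be told apart.

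Cortical interneurons are born in the ventral forebrain and migrate tangentially into the cortex. Dlx1 encodes a homeodomain transcription factor of ventral forebrain progenitors and migrating interneurons. Lhx6 encodes a LIM-homeodomain transcription factor that acts downstream of Nkx2-1 in interneurons from the medial ganglionic eminence, which later make somatostatin or parvalbumin. Vip encodes the precursor of vasoactive intestinal peptide, a secreted neuropeptide of a separate interneuron class from the caudal ganglionic eminence. In the retina Vip is known as a peptide of amacrine cells, the inhibitory interneurons of the inner retina.

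The 3 genes split by direction in these data, Dlx1 and Lhx6 towards cortex and Vip towards retina. Sequences before an annotated start of each are therefore shown. They are RefSeq sequences of the mouse build GRCm38.p6 and give the 150 bases before an annotated start, 5′ to 3′ on the gene's strand. The Dlx1 window lies at chr2:71529295-71529444 on the plus strand, the Lhx6 window at chr2:36105409-36105558 on the minus strand, before the most upstream of the 3 Lhx6 starts in the table, and the Vip window at chr10:5639068-5639217 on the plus strand. The annotated gene runs from 71528113 to 71533981 for Dlx1 and from 36081950 to 36105992 for Lhx6, so both windows lie inside their gene. The Vip gene begins at 5639193, inside its window. Each window thus precedes a start that is not the outer edge of the annotated gene. Capitals mark every match, on either strand, to a set of 6 promoter motifs. The TATA box was searched as TATAAA. The core of the cAMP response element was searched as TGACG, and the full element, TGACGTCA, contains that core. The homeodomain core was searched as TAATTA. The CCAAT box was searched by the letters of its name. The GC box was searched as GGGCGG.
Dlx1: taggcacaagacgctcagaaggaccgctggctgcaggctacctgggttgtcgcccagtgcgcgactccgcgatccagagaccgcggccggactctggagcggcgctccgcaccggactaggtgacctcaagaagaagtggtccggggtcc
Lhx6: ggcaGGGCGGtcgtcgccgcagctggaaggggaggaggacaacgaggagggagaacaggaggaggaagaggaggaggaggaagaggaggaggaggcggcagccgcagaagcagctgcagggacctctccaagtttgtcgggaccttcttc
Vip: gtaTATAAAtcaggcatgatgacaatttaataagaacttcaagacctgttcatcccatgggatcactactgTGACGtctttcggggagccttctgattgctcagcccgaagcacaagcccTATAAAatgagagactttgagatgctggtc
The Vip sequence held TATAAA beginning 30 and 147 bases before the start and TGACG beginning 79 bases before it, and a further TATAAA lay 157 bases before the start, outside the printed stretch. Over the 250 bases before the start, TATAAA occurred in 12.4% and TGACG in 17.8% of the 32851 windows in the table. None of the 6 motifs was found in the 250 bases before this Dlx1 start, which lies inside the gene. The Lhx6 window held 1 GC box, a motif of 32.7% of windows, and 1 CCAAT box 193 bases before the start, outside the printed stretch, a motif of 33.8%. The homeodomain core was in none of these 3 windows and in 4.84% of all. The share of G and C over 250 bases was 68.0% for Dlx1, 61.6% for Lhx6 and 38.4% for Vip, against a median of 52.4%. The Dlx1 window held 22 CpG dinucleotides and the Vip window 3. These matches describe the letters only.

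The arrays carried values for 10339 testable probes, with array medians of 0.927 to 0.963 intensity units after the authors' scaling, and their number limits the precision. Intensities have no absolute unit, so a difference in level between 2 genes is not interpreted. Sums over a gene list add intensities of different probes, and the brightest probes can carry most of a sum. The 5th and 25th percentiles of all intensities, 0.0445 and 0.194, serve as marks of dim signal, since no detection call was used. Labels were checked against marker genes. All 8 photoreceptor genes tested were called higher in retina at both sites, and 5 of 6 cortical projection neuron genes were called higher in cortex at both. Cortex replicate 5 of site 2 stood apart. It read lowest of its group for 71.4% of probes, where an even share would be 20%, and results that rest on it are given with and without it.

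Dlx1 was bright in cortex and dim in retina. In cortex at the first site it read 5.09, 4.74, 4.85 and 5.25 on replicates 1, 3, 4 and 5, and replicate 2 had no value. At site 2 the cortex arrays read 4.75, 4.61, 4.57, 4.97 and 3.40. All cortex arrays but replicate 5 of site 2 stood within a narrow band. In retina the first-site arrays read 0.341, 0.227, 0.309, 0.235 and 0.251 and the site 2 arrays 0.252, 0.172, 0.338, 0.296 and 0.388. Every cortex array was above every retina array, and the retina values lay near the 25th percentile of all intensities, most of them just above it.

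Lhx6 was of moderate intensity in cortex and among the dimmest probes in retina. The first-site cortex arrays read 1.93, 1.49, 1.82, 1.74 and 1.60, and those of site 2 read 1.14, 1.20, 1.21, 1.26 and 0.859. All 5 cortex arrays of site 2 were thus below all 5 of the first site. Retina read 0.0445, 0.0373, 0.0459, 0.0524 and 0.0789 at the first site and 0.0710, 0.0486, 0.0690, 0.0840 and 0.0727 at site 2. The retina values ran from below the 5th percentile of all intensities to well under the 25th, and the retina arrays of the sites overlapped.

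Vip ran the other way. Retina read 1.38, 1.66, 1.45, 1.72 and 1.78 at the first site and 1.49, 1.24, 1.26, 1.27 and 2.04 at site 2. Cortex read 0.289, 0.194, 0.225, 0.164 and 0.169 at the first site and 0.217, 0.202, 0.188, 0.170 and 0.131 at site 2. Every retina array was above every cortex array. The retina values of the 2 sites overlapped, as did the cortex values, and the cortex values lay around the 25th percentile. A reading of bulk RNA cannot tell fewer cells of a type from less RNA per cell, for any of the 3 genes.

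**Figure D1:**
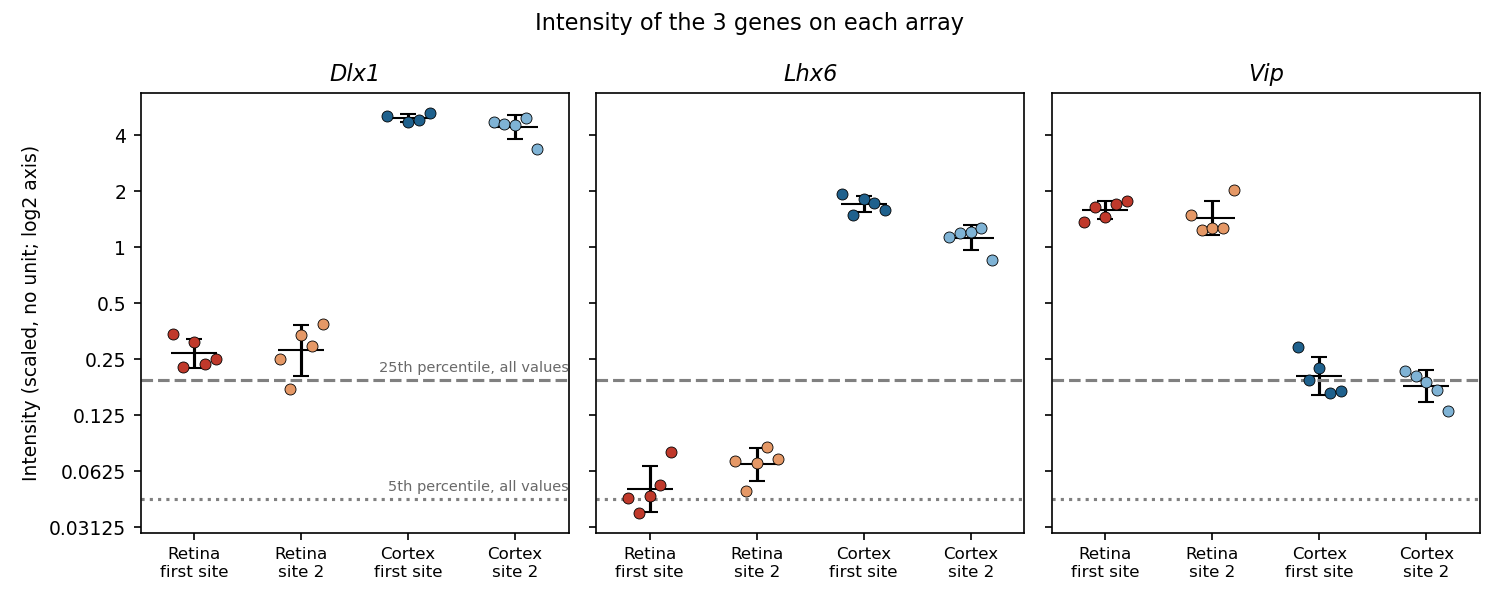
Intensity on each array (points, ordered by replicate 1 to 5 within a group), with the geometric mean and 1 SD of the log2 values (bars), on a log2 axis; the dashed and dotted lines are the 25th and 5th percentiles of all intensities (0.194 and 0.0445). Dlx1 and Lhx6 stand higher on every cortex array and Vip on every retina array, and Lhx6 in retina lies near the 5th percentile.

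The tissue contrast was tested with limma on log2 intensities of all 10339 probes. A probe was called at a Benjamini-Hochberg adjusted p under 0.05 and a difference of at least 2-fold. Called higher in cortex were 13.0% of probes at the first site and 13.5% at site 2. Called higher in retina were 11.9% and 11.1%. All 3 genes were called at both sites, as were 10.5% of probes with cortex higher and 9.31% with retina higher. Counted in either direction, the calls took in 24.9% (first site) and 24.6% (site 2) of probes. They were proposed with earlier results of these data known, so their calls are descriptions of size rather than independent evidence.

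Dlx1 differed between retina and cortex by -4.21 on the log2 scale at the first site (SE 0.19, limma adjusted p = 9.3e-13) and by -3.99 at site 2 (SE 0.18, limma adjusted p = 9.3e-13). Only 1.09% and 1.05% of probes differed by more, in either direction. The 95% intervals were -4.61 to -3.81 and -4.36 to -3.61. The site 2 value was -4.08 without cortex replicate 5.

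Lhx6 differed by -5.09 at the first site (SE 0.17, limma adjusted p = 5.1e-15) and by -4.05 at site 2 (SE 0.17, limma adjusted p = 1.7e-13). Of all probes, 0.542% and 0.977% differed by more. Its size depends on how the dim retina values are treated: with a floor at the 25th percentile it was -3.14 and -2.53, and on the scale of log2(intensity + 0.1) it was -3.58 and -2.86. It remained called in each of these settings. Its order against Dlx1 turned, since Dlx1 differed by -4.21 and -3.95 with that floor and by -3.78 and -3.57 on the other scale. Without cortex replicate 5 of site 2 the site 2 difference was -4.14.

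Vip was higher in retina by 2.96 at the first site (SE 0.17, limma adjusted p = 1.3e-11) and by 3.00 at site 2 (SE 0.17, limma adjusted p = 1.2e-11). Of all probes, 3.44% and 2.78% differed by more. Its 95% intervals were 2.60 to 3.32 and 2.64 to 3.36, and the site 2 value was 2.89 without cortex replicate 5. Vip is listed with the cortical interneuron genes, and in these pools its cortex signal was the lower one at both sites.

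The separation of the arrays was read against the whole table. Groups did not overlap, with cortex higher, for 27.1% of probes at the first site and 24.3% at site 2. With retina higher the shares were 26.2% and 24.0%. Complete separation is therefore common on this platform. An exact 2-sided permutation test on linear intensities gave p = 0.0079 for 5 against 5 arrays, the smallest it can give, in the 5 cases with 5 values in each group. The exact permutation test gave p = 0.016 for Dlx1 at the first site, where cortex had 4 values, and this too is the smallest possible. Adjusted over the 6 tests these were 0.0095 and 0.016.

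**Figure D2:**
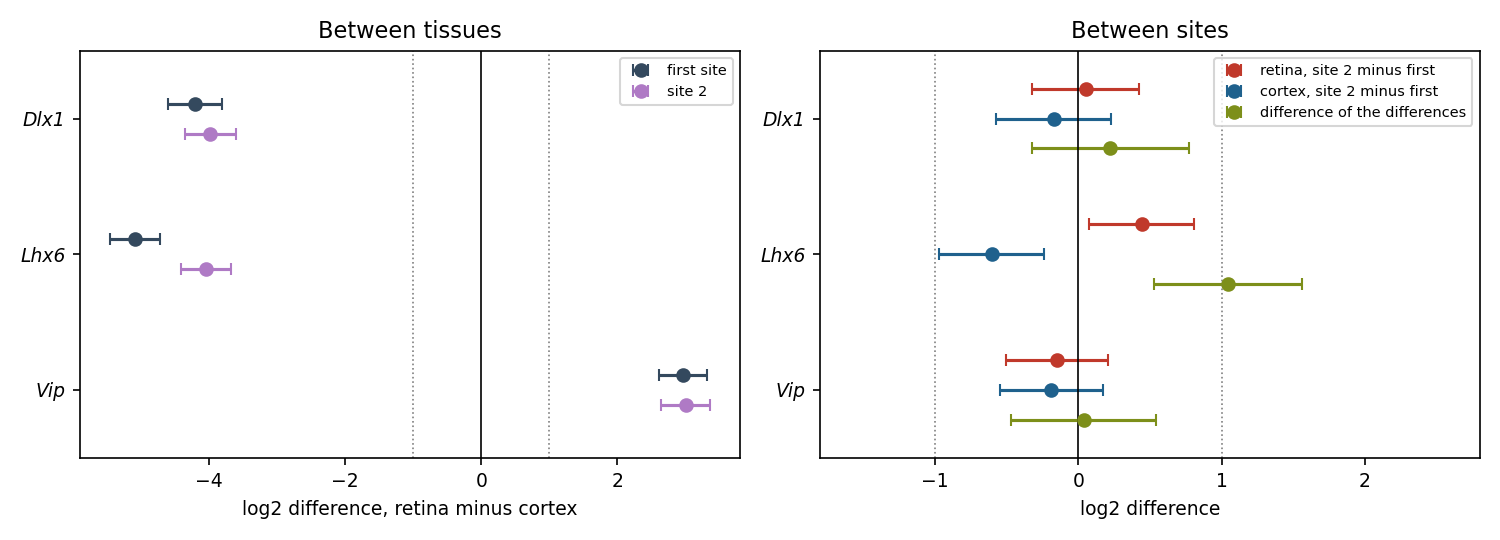
Log2 differences of the 3 genes from limma (points) with 95% intervals (bars); the left panel shows retina minus cortex at each site and the right panel site 2 minus the first site within each tissue and the difference of the retina minus cortex values; dotted lines mark 2-fold. The tissue differences of Dlx1 (-4.21 and -3.99) and Vip (2.96 and 3.00) lie close together at the sites, and that of Lhx6 moves from -5.09 to -4.05.

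The comparison of sites asked how far such values carry over when the same RNA pools are run elsewhere. For Dlx1 the tissue difference changed by 0.22 between sites (95% interval -0.33 to 0.77, limma adjusted p = 0.65), and for Vip by 0.04 (95% interval -0.47 to 0.54, limma adjusted p = 0.94). Neither was called. The intervals cover the spread between arrays under the scaling as deposited. After quantile normalization the change was -0.02 for Dlx1 and 0.46 for Vip (SE 0.23, limma adjusted p = 0.24). For Lhx6 it changed by 1.04 (95% interval 0.53 to 1.56, limma adjusted p = 0.024), which was called, as were 0.725% of probes in either direction and 0.271% in the direction of Lhx6.

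In cortex Lhx6 was 0.60 lower on the log2 scale at site 2 than at the first site (SE 0.17, limma adjusted p = 0.0081), or 1.52-fold, with no overlap of the arrays. Probes with all arrays of the first site above all of site 2 made up 18.7% in cortex. Without cortex replicate 5 of site 2 the difference was -0.51 (limma adjusted p = 0.022). In retina Lhx6 read 0.44 higher at site 2 (SE 0.17, limma adjusted p = 0.044), at values near the 5th percentile, but this did not hold. It was 0.05 after quantile normalization (limma adjusted p = 0.87) and 0.16 with log2(intensity + 0.1) (limma adjusted p = 0.20). Leaving out any 1 array gave 0.34 to 0.61, with an adjusted p under 0.05 only without retina replicate 5 of the first site or retina replicate 2 of site 2. Neither tissue's value reached 2-fold, whereas 7.21% of probes in cortex and 6.24% in retina were called between sites.

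Photoreceptor genes also moved in cortex between sites, with geometric means lower at site 2 for 6 of 8. That of Gnat1 was 2.66 at the first site and 0.141 at site 2, that of Sag 1.26 and 0.202, that of Rom1 0.835 and 0.205, and that of Rp1 0.512 and 0.0624. The summed photoreceptor list read 20.3 to 29.6 on the first-site cortex arrays and 15.2 to 19.8 on those of site 2. No gene of it was at or under the 5th percentile on all arrays of a group. Most of these cortex sums came from Pde6g, with cortex geometric means of 16.7 and 14.7, so they say little about the other photoreceptor genes. The part of photoreceptor signal in the Lhx6 change was not tested.

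The call on Lhx6 between sites was not stable. The change was 0.60 with a floor at the 25th percentile (limma adjusted p = 0.0043), short of 2-fold. All retina values lie at that floor, so only the cortex part is left. After quantile normalization the change was 0.63 (limma adjusted p = 0.13). It was 0.95 without cortex replicate 5 of site 2, 0.94 without retina replicate 2 of the first site and 0.97 without retina replicate 4 of site 2, all under 2-fold. The order of the Lhx6 levels was therefore cortex at the first site, cortex at site 2, then the retina groups, whose order rests on dim values. For Dlx1 the difference between sites was -0.17 in cortex (limma adjusted p = 0.47), and -0.08 without cortex replicate 5 of site 2, and 0.05 in retina (limma adjusted p = 0.84), so neither pair of groups was separated by more than its spread. For Vip it was -0.15 in retina (limma adjusted p = 0.50) and -0.19 in cortex (limma adjusted p = 0.38). The Vip value in cortex was -0.07 without cortex replicate 5 of site 2 and -0.58 after quantile normalization (limma adjusted p = 0.0075). Its size thus depends on the scaling, while site 2 read lower in every setting.

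The spread between arrays differed among the groups. Dlx1 had an SD of 0.07 log2 over 4 cortex arrays at the first site, smaller than that of all but 7.33% of probes, and 0.45 over the 5 retina arrays of site 2, larger than that of 86.7% of probes. Lhx6 had SDs of 0.15 and 0.22 in cortex and of 0.41 and 0.29 in retina, at the first site and site 2. Vip had 0.16 and 0.30 in retina and 0.34 and 0.28 in cortex. The median SD over all tested probes was 0.16 in each retina group, 0.17 in cortex at the first site and 0.23 in cortex at site 2.

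Cortex replicate 5 of site 2 read low for all 3 genes at once. It lay 0.38 below its group's log2 mean for Dlx1, 0.39 for Lhx6 and 0.45 for Vip, while the median tested probe on that array lay 0.27 below. The site values of the 3 genes without it are given above.

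**Figure D3:**
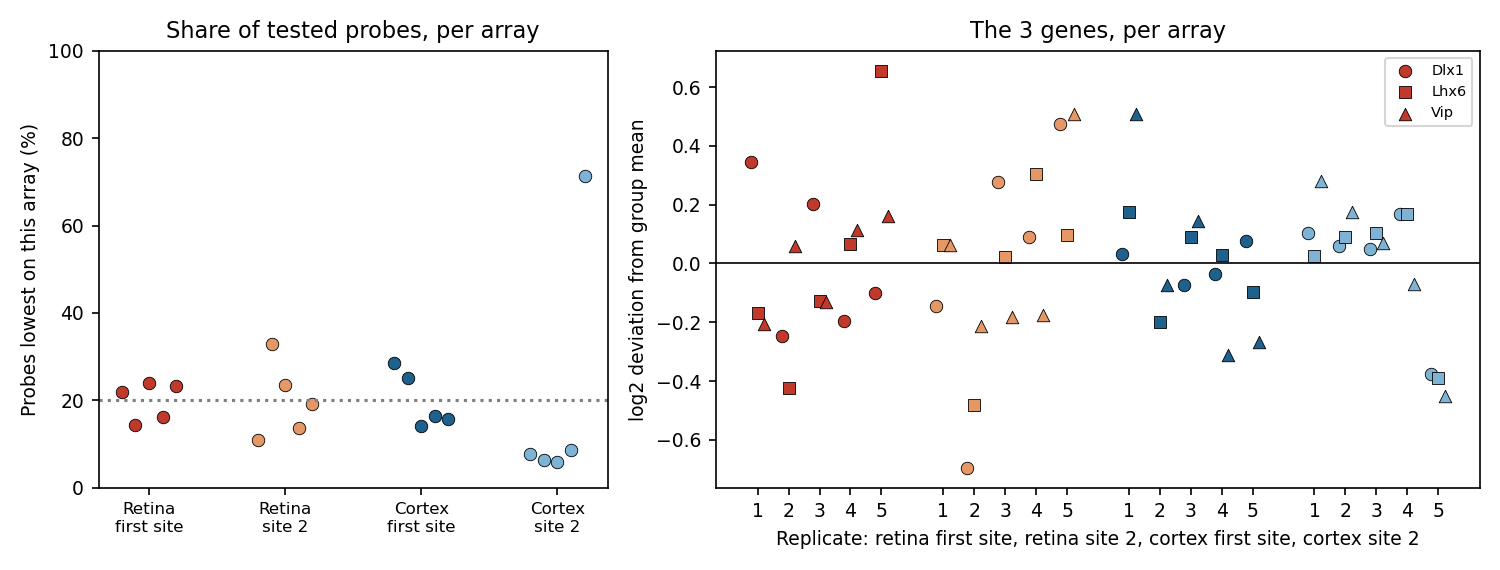
Left, the share of tested probes for which each array read lowest in its group (points; dotted line, the even share of 20%); right, the log2 deviation of the 3 genes from their group mean on each array, by replicate number. Cortex replicate 5 of site 2 was lowest for 71.4% of probes and lay below its group mean for Dlx1, Lhx6 and Vip.

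The relatives of each gene were taken from lists compiled for this report. Of the 6 DLX genes, all measured, 3 were called higher in cortex at each site and 0 higher in retina, and their median difference was -1.01 at both sites against -0.04 and -0.05 over all probes. Dlx2, the neighbour of Dlx1 on chromosome 2 and its partner in interneuron development, was 2.92-fold and 2.99-fold higher in cortex (limma adjusted p = 1.7e-10 and 1.3e-10). Its geometric means of 0.566 and 0.532 in retina and 1.65 and 1.59 in cortex gave a smaller difference than that of Dlx1. Dlx6, a ventral forebrain factor, differed by -3.41 and -2.56 (limma adjusted p = 4.4e-10 and 2.8e-08), from geometric means of 0.0353 and 0.115 in retina. With a floor at the 25th percentile the first-site difference of Dlx6 was -0.95 and no longer called. Dlx5, the neighbour of Dlx6, differed by only -0.29 and -0.27, Dlx4 by -0.47 and -0.44, and Dlx3 by 0.24 and 0.79, and these 3 were not called.

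Among LIM-homeodomain factors and their partners, 12 genes were tested. The cortex side took 5 calls at the first site and 4 at site 2. The retina side took 2 calls at either. Lhx6 differed most. Lmo4, a LIM-only protein of cortical neurons, stood 4.16-fold and 4.75-fold above retina in cortex. Ldb2, a cofactor that binds LIM domains, stood 3.45-fold and 3.33-fold above. Lhx9 differed by -1.30 and -1.25. Lhx2, named after its values were seen, was the fifth at the first site, at -1.01, and missed the call at site 2 with -0.97. Isl1, a factor of ganglion, amacrine and bipolar cells, was 5.12-fold and 4.60-fold higher in retina. Isl2 differed by 3.01 and 1.74 there, from geometric means of 0.0440 and 0.0734 in cortex, and with a floor at the 25th percentile by 0.87 and 0.34, not called. Lhx4 showed the smallest difference, 0.23 and 0.12.

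In the VIP and secretin family 6 genes were tested, 3 further ligands and 2 receptors beside Vip. Vip was the only gene of the 6 on the retina side by call, at either site. Adcyap1, the precursor of the related peptide PACAP, stood 4.84-fold and 3.47-fold above retina in cortex (limma adjusted p = 7.4e-12 and 2.6e-10). Ghrh, the growth hormone releasing hormone, was called higher in cortex at site 2 alone (-1.52, and -0.81, not called, without cortex replicate 5), and it was named after its values were seen. Sct, secretin, at -0.19 and -0.33 and also named after its values were seen, was not called. The receptors showed small differences that were not called, Vipr1 at 0.29 and 0.21 and the PACAP receptor gene Adcyap1r1 at 0.26 and -0.18.

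**Figure D4:**
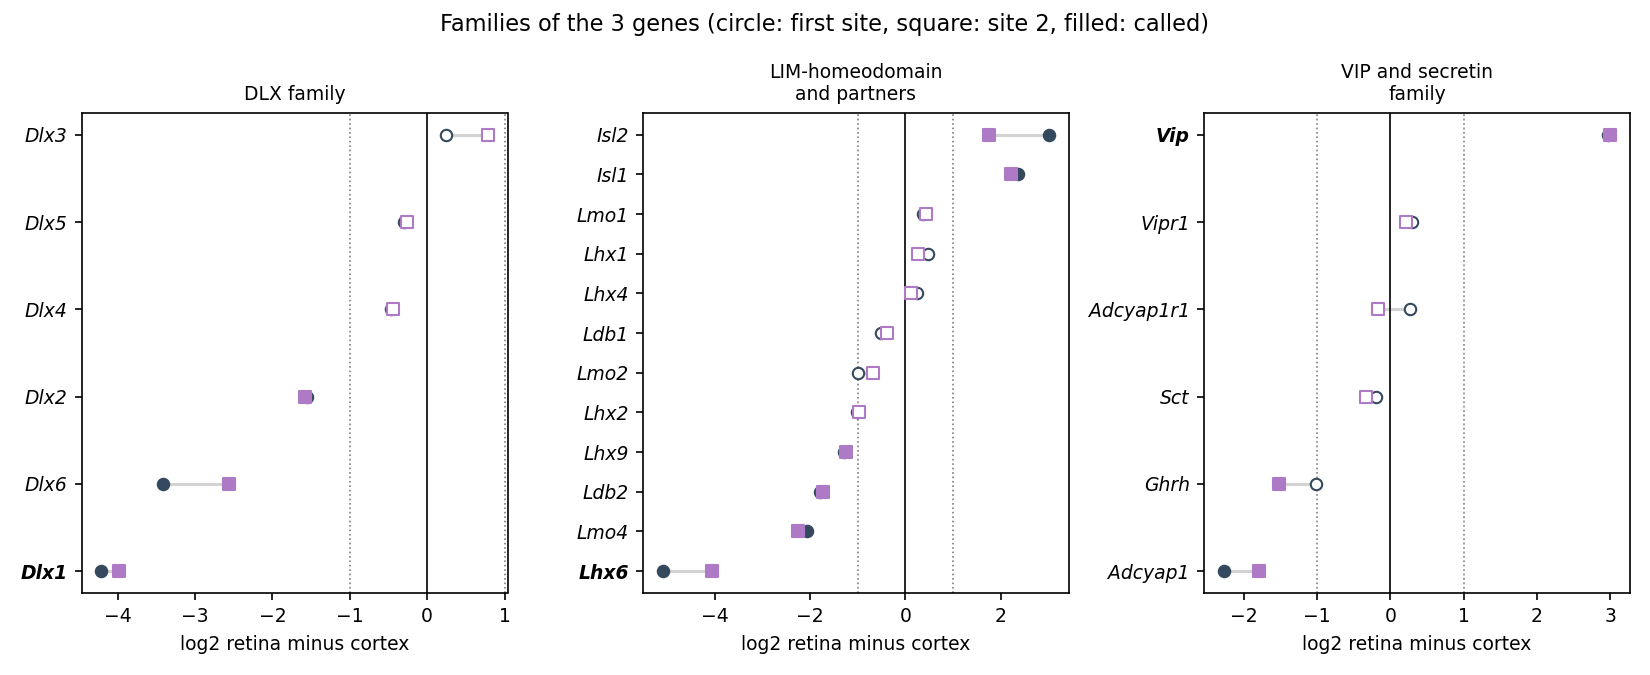
Log2 difference of retina minus cortex for each tested gene of the DLX, LIM-homeodomain and VIP families (circles, first site; squares, site 2; filled where called; dotted lines, 2-fold; the 3 genes in bold). Dlx1 and Lhx6 lie at the cortex end of their families and Vip at the retina end of its own.

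Interneuron transcription factors as a list leaned towards cortex, with Dlx1, Dlx2, Dlx6 and Lhx6, counted above as well, among its calls. Of 15 tested, Dlx1 and Lhx6 included, the cortex side took 6 calls at the first site and 8 at site 2. The retina side took 1 at either, with list medians of -0.87 and -1.11. Prox1, a factor of caudal interneurons that horizontal, bipolar and amacrine cells of the retina also make, was that gene, at 4.74-fold and 2.90-fold. Besides the DLX genes and Lhx6, the cortex side held Npas1 (-3.99 and -3.92) and Nr2f1 (-2.36 and -2.58) at both sites. At site 2 alone it also held Maf (-1.11) and Zeb2 (-1.16), and all 4 were named after their values were seen. These site 2 calls depended on the setting. Zeb2 was -0.87 there, not called, without cortex replicate 5. Maf lost its site 2 call after quantile normalization (-0.89) and on the scale of log2(intensity + 0.1) (-0.72). Flooring dim values at the 25th percentile left Maf at -0.53, also not called. Npas1 read under the 5th percentile in retina (geometric means 0.0381 and 0.0375), and with a floor at the 25th percentile it differed by -1.64 and -1.54, still called. Nkx2-1, the factor upstream of Lhx6, showed the smallest difference when averaged over the sites (0.09 and 0.32, limma adjusted p = 0.87 and 0.52), with geometric means of 0.387 and 0.307 in cortex and 0.411 and 0.384 in retina.

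Peptides and calcium-binding proteins of interneurons were divided. Of 13 tested, 4 were called higher in cortex and 4 in retina at each site. Sst, somatostatin, which marks cells of the Lhx6 lineage, had geometric means of 13.9 on first-site cortex arrays and 1.03 on first-site retina arrays and differed by -3.75 and -3.91 (limma adjusted p = 3.0e-17 and 1.5e-17). Cort, cortistatin, differed by -4.87 and -4.60, and by -3.29 and -3.28 with a floor at the 25th percentile. Pvalb, parvalbumin, a marker of another Lhx6 class in adult cortex and of retinal amacrine cells, was 20.8-fold and 15.0-fold higher in retina. Vip stood next after Pvalb. Npy and Cck completed the cortex group and Calb1 and Calb2 the retina group, all 4 named after their values were seen. Tac1 differed by 0.04 and -0.05.

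Genes that make, load and break down GABA were divided. Of 4 genes tested, 2 were on the retina side by call at either site, and the cortex side had 0 calls at the first site and 1 at site 2. Gad1, which makes GABA, stood 2.56-fold and 2.97-fold above cortex in retina. Slc32a1, which loads it into vesicles, stood 2.39-fold and 2.95-fold above. Gad2, the second synthetic enzyme, was the site 2 exception (-1.11, and -0.14 at the first site), named after its values were seen, and it was not called on the scale of log2(intensity + 0.1) (-0.89). Abat, which breaks GABA down, differed by 0.06 and 0.24.

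Amacrine cell genes were mostly on the side of Vip. Of 10 tested, 7 were called higher in retina and 1 higher in cortex at each site, with list medians of 1.90 and 1.79. Their summed intensity was 98.0 to 105.7 on the first-site retina arrays and 29.3 to 33.5 on the first-site cortex arrays, and 76.7 to 80.8 and 22.7 to 25.8 at site 2, where 1 cortex array with a blank value was left out. The amacrine list shares Gad1 with the GABA list and Calb2 with the list of peptides and calcium-binding proteins. Their geometric means in retina were 37.8 and 33.7 (Gad1) and 32.0 and 17.6 (Calb2), a large part of the sums. Pax6, a factor of amacrine cells, stood 9.25-fold and 10.3-fold above cortex in retina. Slc18a3, the vesicular acetylcholine transporter, stood 6.68-fold and 7.08-fold above. Dab1, an adaptor of reelin signalling, was the exception, 3.63-fold and 2.99-fold higher in cortex. Th, the dopamine synthesis enzyme, differed by 0.24 and -0.01. The part of amacrine cells in the Vip signal was not tested.

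**Figure D5:**
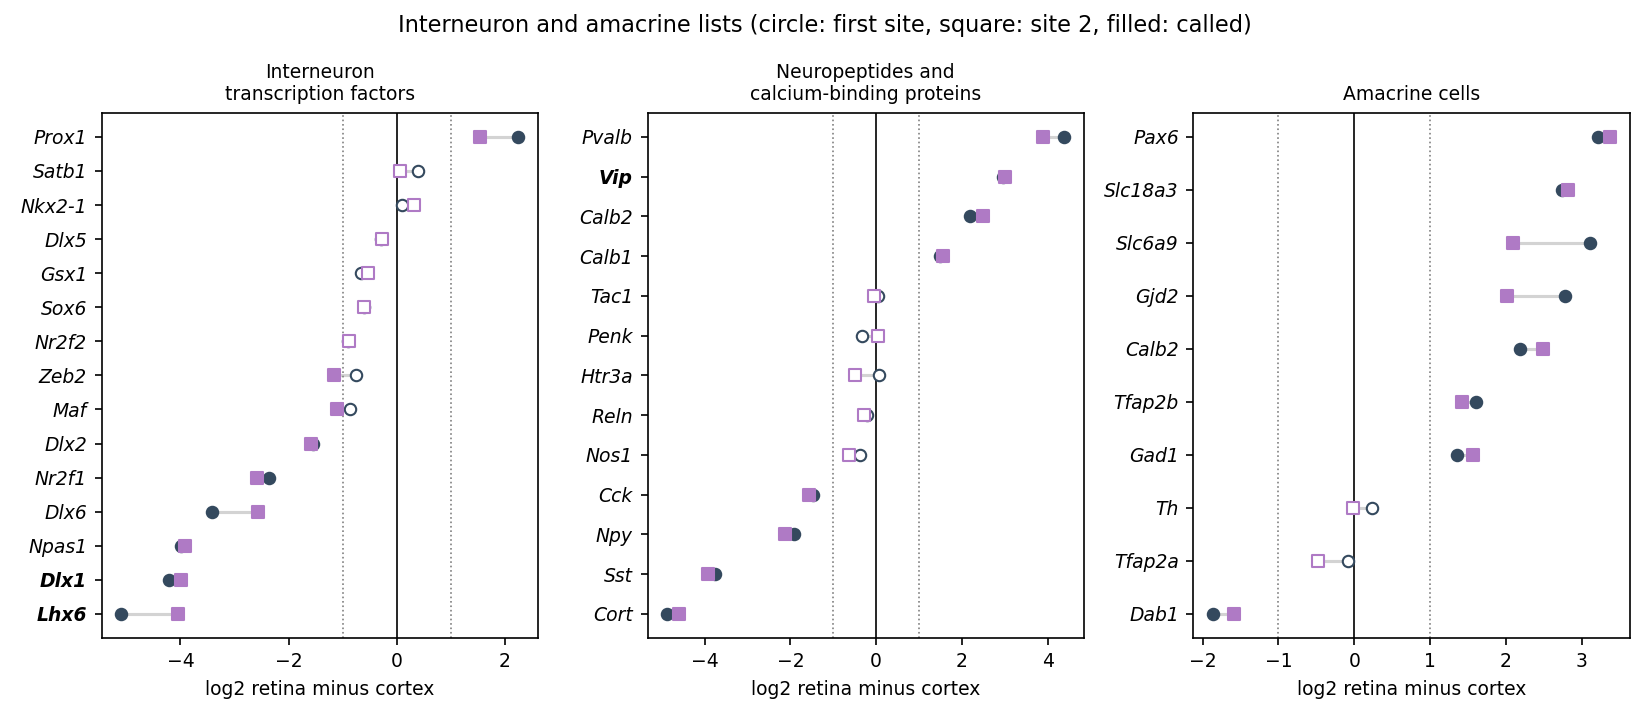
Log2 difference of retina minus cortex for interneuron transcription factors, interneuron peptides and calcium-binding proteins, and amacrine cell genes (circles, first site; squares, site 2; filled where called; dotted lines, 2-fold; the 3 genes in bold). Dlx1 and Lhx6 are at the cortex end of the first panel, Vip follows Pvalb at the retina end of the second, and 7 of 10 amacrine genes are filled on the retina side of the third.

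Regions next to the cortex share some of these genes, so their markers were read as well. Of 8 hypothalamic and pituitary genes, 4 were called higher in cortex at each site, Gh, Avp, Cga and Hcrt (Cga and Hcrt named after their values were seen). With a floor at the 25th percentile the site 2 difference of Hcrt was -0.44 and no longer called. The hypothalamic and pituitary list summed to 15.7 to 18.2 on first-site cortex arrays and 8.22 to 11.5 at site 2. In retina it summed to 1.43 to 1.69 and 1.36 to 3.04. Gh alone had geometric means of 11.4 and 5.43 in cortex. Of 7 thalamic genes, 4 were higher in cortex and 1 in retina at each site, with Tcf7l2 at -4.49 and -4.09 (-3.02 and -2.62 with a floor at the 25th percentile), Zic1 at -3.29 and -3.08, and Rora, on the retina side, at 3.53 and 2.66. The thalamic list, which shares Lhx9 with the LIM list, summed to 26.1 to 28.4 and 27.4 to 30.3 in cortex. In retina its sums were 23.3 to 36.2 and 34.3 to 39.6. Rora alone had geometric means of 15.8 and 22.7 in retina, a large part of those sums. Of 6 striatal genes, 1 was higher in cortex, Foxp1 (-2.71 and -2.86), which cortical neurons also make, and 3 were higher in retina. These 3 were Drd2 (2.47 and 2.79), Rgs9 (1.27 and 1.48) and Ebf1 (1.56 and 1.05). Among those higher in retina, Ebf1, named after its values were seen, was 0.93 at site 2 without cortex replicate 5 and was not called there. The striatal list summed to 18.8 to 21.6 and 13.5 to 18.3 in cortex, and to 29.2 to 32.8 and 23.4 to 27.6 in retina. Rgs9 alone had geometric means of 14.5 and 10.6 in retina, a large part of the retina sums. No group had a gene of the striatal list at or under the 5th percentile on all its arrays. The part of tissue from these regions in the Dlx1 and Lhx6 signals was not tested.

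The genes with the most similar profiles were taken as those with the smallest root mean square difference of centred log2 intensities, among 8613 named probes with values on all 20 arrays. Arrays of a tissue share 1 RNA pool, so likeness here is chiefly likeness of the tissue difference. For Dlx1, over 19 arrays, these were Ccn3, a matricellular protein (root mean square difference 0.26, Pearson r 0.994), Prss12, a serine protease of neurons (0.29, 0.991), Lum, a matrix proteoglycan (0.33, 0.989), Rac3, a small GTPase (0.35, 0.986), and Rprm, a cell cycle inhibitor (0.35, 0.988). For Lhx6, over 20 arrays, Ccn3 (0.29, 0.994) and Prss12 (0.36, 0.990) again came first, followed by Pf4, a chemokine (0.37, 0.989), Nrgn, neurogranin (0.38, 0.986), and Tcf7l2, a factor of thalamic neurons (0.39, 0.987). For Vip they were Cryba4, a lens crystallin (0.25, 0.986), Ebpl (0.26, 0.987), Aldh1a1, a retinaldehyde dehydrogenase (0.26, 0.989), Aldoa, aldolase A (0.26, 0.985), and Fxyd1, a regulator of the sodium pump (0.27, 0.986). The lists for Dlx1 and Lhx6 shared 2 of 5 genes, and Vip shared 0 with either.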

How the data were processed

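Expression was measured in 20 arrays of 2 RNA pools at 2 sites, 4 groups of 5. The deposited table holds 1 linear intensity per probe and array, scaled by the authors so that array medians lie near 1. RNA was labelled by the CodeLink assay kit, per the labels' protocols. How the arrays were scanned, corrected for background and filtered is not given in the sources used here. The table had 2080 blank values and 143 at or below 0, treated as missing on the log2 scale, also in the fits, so Dlx1 had 4 cortex values at the first site. Probes were named from the platform annotation, and promoters came from RefSeq (GRCm38.p6), which held all 3 genes.

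A probe was tested with values on at least 3 of 5 arrays in each group; all 3 genes passed, and 161 probes did not. limma 3.58.1 (R 4.3.3) fitted a mean per group over all 20 arrays, with p-values adjusted over 10339 probes. Tested on simulated data, a log2 difference of 3 was recovered for 100 (first site) and 99 (site 2) of 100 probes, and a difference of 1.5 for 92 of 100 in both contrasts. The simulated noise was independent between probes, and far fewer probes were changed than were called in the data. Recovery under a shift of a whole array was not tested. Quantile or median scaling, floors at the 5th and 25th percentiles, a pseudocount of 0.1, looser and stricter filters, fewer groups, a replicate block, limma's trend and robust options, leaving out arrays, and an exact permutation test were tried. The members and gene lists were chosen with earlier results of these data known. Named were the 3 genes, all DLX genes, and within each other list the genes called at both sites (in the LIM and VIP lists all, elsewhere at most 2 in each direction) and the 1 with the smallest difference, plus the 5 most similar profiles; of the marker lists only some of these genes are given. Python 3.11.15, numpy 2.4.6, scipy 1.17.1, pandas 2.3.3 and matplotlib 3.10.9 were used for tables and plots.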

Additional observations from a re-analysis of the deposited data

Results flagged for a closer look

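On cortex replicate 5 of site 2, Dlx1 read 3.40, against 4.57 to 4.97 on the other 4 arrays, and Lhx6 read 0.859, against 1.14 to 1.26. In each case the gap to the nearest array took more than 0.71 of the group's log2 range, past Dixon's 95% critical value for 5 arrays. Chance flags about 1 in 20 groups, and 12 groups were examined. Vip was also lowest on that array, at 0.131, without passing the same limit.

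The retina minus cortex difference of Lhx6 itself differed between the sites, by 1.04 on the log2 scale (limma adjusted p = 0.024), with the limits given in the report.

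Among the other 96 genes of the lists, the difference changed between sites for 13 at a limma adjusted p under 0.05, 6 of them by at least 2-fold. Over all tested probes 0.725% passed both limits, and the share passing the adjusted p alone was not counted. The 6 of at least 2-fold were the photoreceptor genes Gnat1 (4.83), Sag (3.30), Rom1 (3.13) and Rp1 (2.66), Emx1 of projection neurons (1.16) and Isl2 (-1.27). The changes of Emx1 and Isl2 rest on dim values. Emx1 had geometric means of 0.0350 and 0.0452 in retina, and Isl2 of 0.0440 and 0.0734 in cortex. The 7 under 2-fold were Gad2 (-0.97), Pde6g (0.90), Rora (-0.87), Eomes (0.71), Prox1 (-0.71), Cga (0.64) and Penk (0.37). How these 13 changes depend on the processing was not examined.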

How the results depend on the processing

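The retina minus cortex differences of Dlx1, Lhx6 and Vip kept their direction and their call at each site under all 11 alternatives each and when any 1 array was left out. Over the left-out arrays Dlx1 ranged from -4.30 to -4.15 and from -4.11 to -3.81, Lhx6 from -5.26 to -4.99 and from -4.14 to -3.93, and Vip from 2.89 to 3.09 and from 2.87 to 3.07, at the first site and site 2. The change of the Lhx6 difference between sites lost its call after quantile normalization (0.63, limma adjusted p = 0.13) and with a replicate block (1.04, limma adjusted p = 0.094). Floors at the 5th (0.99, limma adjusted p = 0.019) and 25th (0.60, limma adjusted p = 0.0043) percentiles also removed the call. So did log2(intensity + 0.1) (0.72, limma adjusted p = 0.0055). With the floors and on that scale only the 2-fold limit was missed. The change ranged from 0.94 to 1.21 without any 1 array. Replicate numbers did not pair the arrays, since deviations of same-numbered arrays correlated at -0.08 to 0.05; the replicate block changed no other call on the 3 genes. Probes called for a change between sites numbered 75, and 24 with the replicate block, 35 with log2(intensity + 0.1), and 56 to 121 without any 1 array (121 without cortex replicate 5 of site 2). Probes called between sites in retina numbered 645, and 312 with the 25th percentile floor, 255 with log2(intensity + 0.1) and 367 with probe means above the 25th percentile; in cortex the numbers were 745, 396, 370 and 444. Among probes called between sites, the split of higher against lower at site 2 went from 495 and 150 to 298 and 176 in retina and from 547 and 198 to 251 and 259 in cortex after quantile normalization, and that of the change between sites, towards retina against towards cortex, from 28 and 47 to 38 and 41. The replicate block across sites was chosen after seeing the data. The medians of all probes moved by at most 0.1 under either scaling. Signal over background, unknown here, limits the Lhx6 level in retina.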

Other observations

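Signals that guide migrating interneurons lay on the side of Dlx1 and Lhx6. Of 10 tested, 5 were called higher in cortex at each site and 0 in retina, with list medians of -1.02 and -0.98. Robo1, a receptor for Slit proteins, stood 9.83-fold and 7.40-fold above retina in cortex. Nrp1, a semaphorin receptor, stood 4.90-fold and 7.43-fold above. Cxcl12, a chemokine of the meninges and the migratory streams, differed by -2.02 and -1.93, and Ackr3, which binds it, by -1.32 and -1.63, both named after their values were seen. The other called gene was Slit1 at the first site (-1.57) and Cdk5 at site 2 (-1.01), also named after their values were seen. The first-site difference of Slit1 was -0.61 with log2(intensity + 0.1) and 0.00 with a floor at the 25th percentile, not called in either. That of Cdk5 at site 2 was -0.98 with log2(intensity + 0.1), also not called. Cxcr4, the receptor of Cxcl12 on migrating interneurons, differed by -0.29 and -0.23, and Hgf by -0.16 and -0.25, and neither was called.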
